A study of Sus scrofa with 6 samples.

Results

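Cadherins and protocadherins, the 2 large families of calcium-dependent adhesion receptors, were followed across the growth of porcine midbrain-like organoids (pMLOs). The members were all genes whose symbol in the deposited gene lists begins with CDH and a digit or with PCDH, which gave 40 of 30477 genes, 22 cadherins and 18 protocadherins. The organoids came from 1 line of embryonic stem cells derived from in vitro fertilised pig embryos (IVF_1_ pESC_FIW) and were sampled on day 11 (D11), day 28 (D28) and day 45 (D45), each day in 2 libraries that the labels letter A and B. Every group shared the same treatment from the start of differentiation, SB431542, Noggin, SHH-C24II and CHIR99021, followed by FGF8 and then by FGF8 with BDNF and ascorbic acid. Only the D28 and D45 organoids had been embedded in Matrigel and grown with BDNF, GDNF, ascorbic acid, db-cAMP and DAPT, so that age and culture medium cannot be told apart.

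Classical cadherins bind the same or a related cadherin on the neighbouring cell and hold the actin skeleton through catenins. Type I members such as CDH1 (E-cadherin) and CDH2 (N-cadherin) form strong junctions of epithelia and of the neuroepithelium, while type II members are spread in combinations over nuclei, layers and axon tracts of the brain. Clustered protocadherins give single neurons a surface identity used in self-avoidance, and delta protocadherins link contacts to actin remodelling in axons and dendrites. By these classes the members comprised 5 type I cadherins, 13 type II cadherins, 4 atypical cadherins, 9 clustered protocadherins, 8 delta protocadherins and 1 further protocadherin, PCDH12.

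Values are UMI counts, in which each captured mRNA molecule is counted once, summed over the kept cells of a library and scaled by the UMI total of the library to the usual CPM unit. The kept cells numbered 13954 to 21615 per library, and a library held between 106851387 and 180098372 UMIs. Median UMIs per cell were 10741 and 8821 for the D11 libraries, 5499.5 and 8095 for D28 and 2240 and 4242 for D45. Between 55 and 119 barcodes were shared by any pair of libraries. The labels call every library midbrain dopaminergic neurons, yet STMN2, a neuronal tubulin-binding protein, had a UMI in only 26.8% and 33.4% of D11 cells. The D28 replicates stood apart from each other: the summed fibroblast markers (COL1A1, COL3A1, LUM, DCN, PDGFRA) reached 931 CPM in replicate A and 118 CPM in replicate B. The letters A and B name separate samples, and the study calls them biological duplicates.

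In sums over whole organoids, a lower share of the cells that carry a gene and less RNA per cell cannot be told apart. Fitted log2 changes use TMM scaling, which centres most genes near 0. With scaling by library size alone, the median of all genes moved from -0.01 to 0.40 for D45 against D11 and from 0.03 to 0.30 for D28 against D11, and the share of called genes that were higher went from 49.9% to 74.6% and from 54.3% to 77.2%. In the gates that share went from 49.7% to 28.8% for CORIN, from 40.2% to 59.2% for STMN2 and from 52.2% to 33.1% for AQP4, and the members then gave 6 higher and 15 lower, 12 higher and 5 lower, and 1 higher and 9 lower. Changes are therefore relative to the typical gene. In these contrasts of days a rise can be larger as a CPM ratio than as a fitted change, and a fall can be smaller. Under library size alone, tried after the data were seen, no called member changed its direction, but the split for D45 against D11 went from 12 higher and 7 lower to 17 higher and 5 lower.

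The start sites of 5 members around which the results turn are shown first. They are CDH1 and CDH2, the type I pair of epithelium and neuroepithelium, PCDH9 and CDH20, which had the 2 largest rises on D45 against D11, and CDH6, which fell most on D45 against D28. Each sequence is the 250 bases upstream of the start of the RefSeq gene model in Sscrofa11.1, written 5′ to 3′ on the strand of the gene. Capitals mark CAGGTG and its reverse complement CACCTG, the E-box bound by SNAI and ZEB repressors of cadherin genes, searched on both strands as a single motif. The windows lie at chr6:18155987-18156236, minus strand (CDH1), chr6:112629074-112629323, minus strand (CDH2), chr11:39455167-39455416, minus strand (PCDH9), chr1:160024986-160025235, minus strand (CDH20) and chr16:17531612-17531861, plus strand (CDH6).
CDH1: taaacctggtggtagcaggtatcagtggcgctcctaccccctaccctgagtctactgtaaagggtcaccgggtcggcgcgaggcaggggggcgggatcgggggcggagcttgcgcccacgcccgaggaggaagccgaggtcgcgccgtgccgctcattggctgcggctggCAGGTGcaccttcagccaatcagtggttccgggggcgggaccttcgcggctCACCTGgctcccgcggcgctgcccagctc
CDH2: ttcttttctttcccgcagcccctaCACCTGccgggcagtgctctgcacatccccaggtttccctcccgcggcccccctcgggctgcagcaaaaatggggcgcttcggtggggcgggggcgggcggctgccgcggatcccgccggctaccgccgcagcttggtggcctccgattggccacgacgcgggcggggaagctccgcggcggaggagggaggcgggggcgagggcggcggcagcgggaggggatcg
PCDH9: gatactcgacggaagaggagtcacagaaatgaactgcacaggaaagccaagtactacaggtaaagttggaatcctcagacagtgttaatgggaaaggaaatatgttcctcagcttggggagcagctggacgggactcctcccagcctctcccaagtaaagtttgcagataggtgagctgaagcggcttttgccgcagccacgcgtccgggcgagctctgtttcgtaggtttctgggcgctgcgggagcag
CDH20: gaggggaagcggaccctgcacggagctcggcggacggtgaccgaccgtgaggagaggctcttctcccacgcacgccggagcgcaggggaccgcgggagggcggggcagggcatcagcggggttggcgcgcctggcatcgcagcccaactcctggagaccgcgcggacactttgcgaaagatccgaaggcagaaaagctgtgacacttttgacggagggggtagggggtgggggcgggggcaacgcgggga
CDH6: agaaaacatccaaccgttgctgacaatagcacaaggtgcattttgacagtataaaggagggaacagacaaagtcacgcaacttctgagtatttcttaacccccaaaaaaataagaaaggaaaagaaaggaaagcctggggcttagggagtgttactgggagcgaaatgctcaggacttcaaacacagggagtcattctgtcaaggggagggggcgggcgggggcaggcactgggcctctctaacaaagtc
The CDH1 window held 2 matches and the CDH2 window 1, whereas the windows of PCDH9, CDH20 and CDH6 held 0. Of the 31 members found by symbol in the annotation, 8 had the motif (25.8%), against 3826 of 19559 windows of protein-coding genes on chromosomes (19.6%). A match is a description of the letters and no sign that a factor was bound.

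The family was dominated by a few genes. Summed over all 40 members, the level was 1824 and 1528 CPM on D11, 1829 and 3026.5 CPM on D28, and 2986 and 2826 CPM on D45. The D45 libraries were both above the D11 libraries, and D28 replicate A lay close to the latter. In all, 29 members exceeded 1 CPM in every library. At the other end stood PCDHB7, with 1 UMI in total, and CDH16, a kidney cadherin, with 19 UMIs, and neither passed the filter on low counts. CDH5 (VE-cadherin), the junction cadherin of endothelium, had 14 to 35 UMIs per library and was between 0.0777 and 0.295 CPM. Its change on D45 against D11 was 1.04 ± 0.48 on the log2 scale (edgeR quasi-likelihood test, Benjamini-Hochberg adjusted p = 0.135).

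**Figure D1:**
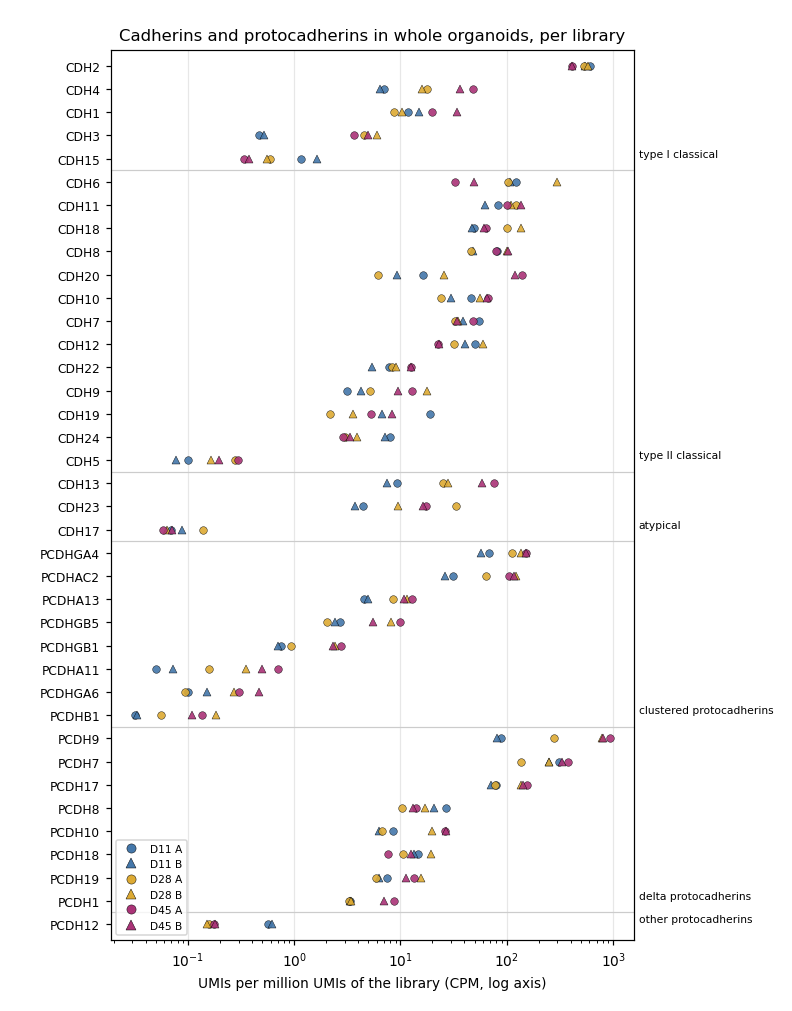
Level of each member in CPM (log axis) in the 6 libraries, ordered by class, with circles for replicate A, triangles for replicate B and colour for the day. CDH2 lies furthest to the right on D11, and PCDH9 moves from 81.6 and 88.1 CPM on D11 to 802 and 934 CPM on D45. CDH16 and PCDHB7, at 0 in some libraries, are not drawn.

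The summed level of the protocadherin classes was higher on D45 than on D11. The 8 delta protocadherins together went from 494 ± 61.5 CPM (SD, n = 2) on D11 to 1442 ± 131 CPM on D45, and the 9 clustered protocadherins went from 99.6 ± 11.6 to 288 ± 4.06 CPM. The type I cadherins were at 594 ± 40.3 CPM on D11 and at 485 ± 0.475 CPM on D45. These sums were not tested. Their most abundant genes were PCDH9 and PCDH7 among the delta protocadherins, PCDHGA4 and PCDHAC2 among the clustered ones and CDH2 among the type I cadherins.

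**Figure D2:**
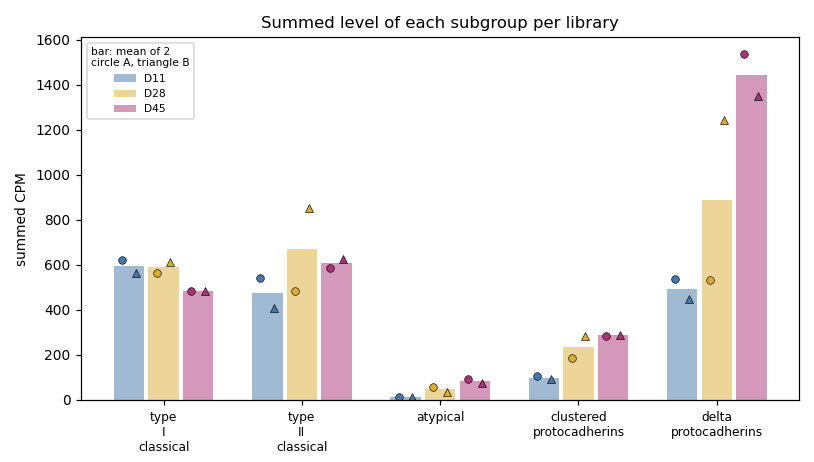
Summed CPM of 5 classes on each day, with bars for the mean of 2 libraries and points for the libraries (circle A, triangle B). Delta protocadherins reach 1535 and 1350 CPM on D45 against 537 and 451 CPM on D11, and the D28 libraries differ most within a day, at 531 and 1242 CPM.

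Across days, members rose more often than they fell between D11 and D28. Of 38 members tested, 10 were higher and 5 lower on D28 than on D11 (edgeR quasi-likelihood test, Benjamini-Hochberg adjusted p under 0.05, 22197 genes tested), where 12.5% of all genes were higher and 10.6% lower. Between D28 and D45, 5 were higher and 3 lower (4.51% and 4.95% of all genes). Between D11 and D45, 12 were higher and 7 lower, against 17.3% and 17.4% of all genes. The median change of the tested members for D45 against D11 was 0.59, beside -0.01 for all genes. The protocadherins gave 8 higher and 2 lower of 17, and the cadherins 4 higher and 5 lower of 21. Of those 8, 5 were clustered protocadherins (PCDHAC2, PCDHA11, PCDHA13, PCDHGA4 and PCDHGB1). Isoforms within the alpha cluster, or within the gamma cluster, may not be separated by 3′ counting, so that calls within 1 cluster need not be separate signals.

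How many calls were made depended on single libraries. The number of all genes called moved in the same direction each time, so the counts below are no trait of the members. Leaving out D11 replicate A or B gave 2 calls for D28 against D11, and leaving out D28 replicate A gave 24. For D45 against D28 there were 2 calls without D11 replicate A or B, 0 without D45 replicate A or B, 10 without D28 replicate A and 23 without D28 replicate B. For D45 against D11 there were 11 without D11 replicate A or D45 replicate B, 12 without D11 replicate B, 10 without D45 replicate A and 31 without either D28 library. In that contrast 9 of the 19 calls held without each library in turn, those of CDH13, CDH15, CDH24, CDH3, CDH4, PCDH12, PCDH9, PCDHA11 and PCDHAC2. No called member changed direction.

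Among type I cadherins, CDH2, the main cadherin of neural progenitors, was the most abundant member on D11. It had 603 and 542 CPM on D11, 534 and 579 CPM on D28, and 412 and 409 CPM on D45. The D45 libraries were the lowest, with no overlap with D11. The fitted fall from D11 to D45 was -0.89 ± 0.20 (SE; edgeR adjusted p = 0.0141). With scaling by library size alone it was -0.48 with an adjusted p of 0.0928 in edgeR, so the call rests on the scaling as well as on each of the D11 and D45 libraries.

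CDH1, the epithelial junction cadherin, moved the other way late. Its level was 11.8 and 15.1 CPM on D11, 8.68 and 10.4 CPM on D28, and 19.8 and 34.4 CPM on D45. Both D45 libraries lay above all others, and the rise from D28 to D45 was 1.37 ± 0.31 (edgeR adjusted p = 0.0403), a call lost when any D11 or D45 library was left out. That change was 0.87 without D45 replicate B and 1.75 without D45 replicate A. On D45 against D11 the change was 0.61 ± 0.30 (edgeR adjusted p = 0.161), which passed with scaling by library size alone (edgeR adjusted p = 0.0367). The summed epithelial markers (EPCAM, KRT8, KRT18) were 20.9 and 22.5 CPM on D11, 4.77 and 2.75 CPM on D28 and 2.12 and 1.67 CPM on D45. Most of the sum was KRT8 on D11 and D28, while on D45 KRT8 was at 1.12 and 0.755 CPM. EPCAM went from 0.158 and 0.15 CPM on D11 to 0.691 and 0.558 CPM on D45. Summed fibroblast markers were 10.1 and 14.8 CPM on D11, 931 and 118 CPM on D28, and 487 and 1379 CPM on D45. The part of these markers in the level of CDH1 was not tested.

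CDH4 (R-cadherin), which guides axons and acts in retina and brain, rose in each step. It had 7.03 and 6.46 CPM on D11, 17.7 and 15.9 CPM on D28, and 48.5 and 36.6 CPM on D45. No libraries of different days overlapped, and the change from D11 to D45 was 2.24 ± 0.22 (edgeR adjusted p = 0.000666), a call that held without each library in turn. The call for D28 against D11 was lost without D11 replicate A or B, and that for D45 against D28 without any D11 or D45 library. CDH3 (P-cadherin), found in basal epithelium and pigment cells, was at 0.468 and 0.516 CPM on D11 and at 4.51 and 6.01 CPM on D28, a rise of 3.14 ± 0.30 (edgeR adjusted p = 0.00129) that held without each library in turn. On D45 it stood at 3.62 and 4.98 CPM. CDH15 (M-cadherin), known from muscle, fell from 1.15 and 1.63 CPM on D11 to 0.337 and 0.377 CPM on D45, by -2.37 ± 0.34 (edgeR adjusted p = 0.00278).

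The type II cadherins went in several directions, with 1 higher and 3 lower of 13 on D45 against D11, beside 17.3% and 17.4% of all genes. CDH20, a type II cadherin of the neural tube and brain, was the riser. It had 16.3 and 9.27 CPM on D11, 6.11 and 25.7 CPM on D28, and 139 and 120 CPM on D45. The D11 and D28 libraries overlapped and both D45 libraries were far above them, by 2.94 ± 0.57 over D11 (edgeR adjusted p = 0.00837) and by 2.94 ± 0.57 over D28 (edgeR adjusted p = 0.0283). The first call was lost without D11 replicate B and the second without D45 replicate A or B. With single libraries left out, the value for D45 against D28 ranged from 2.35 to 4.13. Summed oligodendrocyte lineage markers (OLIG1, OLIG2, SOX10, MBP) moved in the same libraries, at 3.79 and 3.00 CPM on D11, 6.15 and 56.5 CPM on D28, and 532 and 400.4 CPM on D45, with 0 of the 4 markers at 0 in any library. Their part in the level of CDH20, or of other members that rose by D45, was not tested.

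CDH6 (K-cadherin), a cadherin of kidney and of the early brain, followed the opposite course. Its level was 123 and 107 CPM on D11, 102 and 297 CPM on D28, and 33.0 and 49.4 CPM on D45. The D45 libraries were the lowest, and D28 replicate B was the highest. The change from D28 to D45 was -2.36 ± 0.44 (edgeR adjusted p = 0.0257) and from D11 to D45 -1.88 ± 0.43 (edgeR adjusted p = 0.0153). Either call was lost without D11 replicate A, D11 replicate B, D45 replicate A or D45 replicate B, and the first value was -1.57 without D28 replicate B. Summed floor plate markers (CORIN, SHH, FOXA1, FOXA2, NTN1, SPON1) were 1950.5 and 1813 CPM on D11, 737 and 1266 CPM on D28, and 227 and 314 CPM on D45. On D28 they lay below D11, unlike CDH6 in replicate B, and their part was not tested.

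CDH18, a cadherin of central neurons, peaked on D28, at 102 and 136 CPM, above 49.6 and 47.5 CPM on D11 and 63.4 and 60.5 CPM on D45. The rise of 1.02 ± 0.16 (edgeR adjusted p = 0.00564) and the fall of -1.08 ± 0.16 (edgeR adjusted p = 0.0137) both passed, and neither held without D11 replicate A or B, the fall also not without D45 replicate A or B. CDH12, another brain cadherin, fell from 50.6 and 40.6 CPM on D11 to 22.7 and 22.8 CPM on D45 (-1.41 ± 0.24, edgeR adjusted p = 0.00535), a call lost without D45 replicate A. CDH24 fell from 7.99 and 7.11 CPM to 2.85 and 3.39 CPM (-1.68 ± 0.24, edgeR adjusted p = 0.00243). CDH19, a cadherin of Schwann cell precursors, had 18.9 and 6.65 CPM on D11 and 2.19 and 3.61 CPM on D28 (-2.41 ± 0.51, edgeR adjusted p = 0.0177). Without D11 replicate A the change was -1.49 and the call was lost.

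Other type II members were abundant without passing in any contrast of days, so that no direction is given for them. CDH11 (OB-cadherin), known from bone and mesenchyme, ranged from 63.0 to 136 CPM. CDH8, a cadherin of synapses and thalamocortical areas, ranged from 46.5 to 103 CPM. CDH7 lay between 32.9 and 54.8 CPM and CDH10, another brain cadherin, between 24.0 and 67.2 CPM.

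Among atypical cadherins, CDH13 (T-cadherin), which is held by a lipid anchor and has no catenin-binding tail, rose at each step. It had 9.38 and 7.42 CPM on D11, 25.3 and 27.8 CPM on D28, and 75.9 and 58.4 CPM on D45. The days did not overlap, and the D11 to D45 change was 2.59 ± 0.20 (edgeR adjusted p = 0.000341), which passed without each library in turn. The first step was lost without D11 replicate B and the second without D45 replicate A or B. CDH23, known from the tip links of hair cells, was at 4.43 and 3.74 CPM on D11, and its D28 replicates were at 33.6 and 9.55 CPM. The D28 change of 2.21 ± 0.58 (edgeR adjusted p = 0.0357) was lost without either D11 or either D45 library, and it was 0.85 without D28 replicate A.

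PCDH9, a delta protocadherin of brain neurons, had the largest rise of the delta class. Its level was 88.1 and 81.6 CPM on D11, 281 and 781 CPM on D28, and 934 and 802 CPM on D45. All D28 and D45 libraries were above D11, and the D28 replicates were further apart than those of any other day. The changes were 2.33 ± 0.40 for D28 against D11 (edgeR adjusted p = 0.00806) and 2.94 ± 0.40 for D45 against D11 (edgeR adjusted p = 0.00226). The first call was lost without D11 replicate A or B, and its value ranged from 1.58 without D28 replicate B to 2.83 without D28 replicate A. In cells with at least 1 UMI of STMN2 the D45 against D11 change was 2.14 ± 0.41 (edgeR adjusted p = 0.00949), a call lost whichever D11 or D45 library was left out. The mean of PCDH9 on D45 was 869 CPM in these cells and 868 CPM in whole organoids. Over the 6 libraries it was 530 CPM in these cells and 458 CPM in the other cells, a difference that was not called. That difference fell from D11 to D45, a called change (15.9% of all genes). Its log2 value lay between -2.00 and -1.39 with single libraries left out. Summed neuron markers (STMN2, DCX, ELAVL3, MAPT, SNAP25, SYT1) in whole organoids were 776 and 895 CPM on D11, 2393.5 and 1810 CPM on D28, and 1775 and 1713 CPM on D45, and their part was not tested. PCDH9 and CDH2 together held 37.9% to 45.1% of the UMIs of the family in a library.

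PCDH7 (NF-protocadherin), which acts in axon growth, had 309 and 247 CPM on D11, 135 and 249 CPM on D28, and 376 and 334 CPM on D45. D28 overlapped D11 and the D45 libraries were the highest, but no contrast passed in whole organoids. PCDH8 (arcadlin), a protocadherin induced by synaptic activity, fell from 26.8 and 20.6 CPM on D11 to 14.2 and 13.2 CPM on D45 (-1.20 ± 0.22, edgeR adjusted p = 0.00707), a call lost without D11 replicate A, D45 replicate A or D45 replicate B. PCDH17, found along axon bundles and at synapses, stood at 79.5 and 71.7 CPM on D11 and at 156 and 143 CPM on D45, with an adjusted p of 0.0809 in edgeR. PCDH12, an endothelial protocadherin outside these classes, was at 0.569 and 0.622 CPM on D11 and between 0.151 and 0.181 CPM on the later days (-2.14 ± 0.33 for D45 against D11, edgeR adjusted p = 0.00354).

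The clustered protocadherins that passed all rose, with 5 higher and 0 lower of 8 tested on D45 against D11, beside 17.3% and 17.4% of all genes. The calls of PCDHA13, PCDHGA4 and PCDHGB1 were lost whichever D11 or D45 library was left out. The lowest of the 8 changes was 0.88, that of PCDHGA4, and 0 fell at an unadjusted p under 0.05 in edgeR or DESeq2. PCDHAC2, the alpha-C2 isoform, had 31.1 and 26.3 CPM on D11, 63.8 and 122 CPM on D28, and 106 and 118 CPM on D45, a rise of 1.56 ± 0.25 (edgeR adjusted p = 0.00432). PCDHGA4 had 68.5 and 56.7 CPM on D11, 112 and 137 CPM on D28, and 152 and 153 CPM on D45 (0.88 ± 0.17, edgeR adjusted p = 0.00791). PCDHA11 was low, at 0.0505 and 0.0722 CPM on D11 and 0.707 and 0.495 CPM on D45 (2.85 ± 0.47, edgeR adjusted p = 0.00436). It had only 8 and 13 UMIs in the D11 libraries, so that the size of this rise rests on few counts. Isoforms of the alpha locus are held to share their last exons, and 3′ counting may not separate them. The RefSeq model of PCDHA11 (chr2:142521690-142687684) ends at the same base as models of alpha-C2, while that of alpha-13 ends at chr2:142657171. Gamma isoforms are also held to share their last exons, which the RefSeq models do not show. The model of gamma-A4 ends at chr2:142995956 and that of gamma-B7 at chr2:143156556. The names of the clustered members, alpha and gamma, are therefore uncertain, and calls within the alpha cluster, or within the gamma cluster, need not be separate signals.

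**Figure D3:**
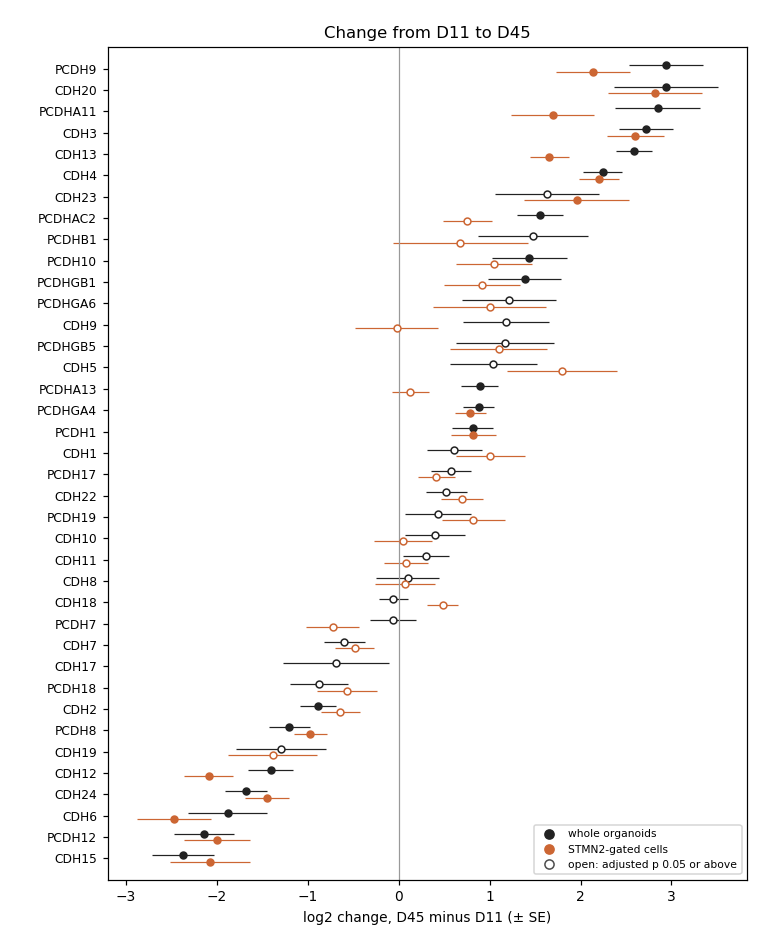
Log2 change from D11 to D45 (points, bars ± SE) for each tested member in whole organoids (black) and in cells with an STMN2 UMI (orange), with open points where the edgeR adjusted p was 0.05 or above. PCDH9 and CDH20 lead the rises at 2.94 each in whole organoids, CDH15 has the lowest value in whole organoids at -2.37, and CDH9 is at 1.18 in whole organoids and at -0.02 in STMN2-gated cells.

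The same contrasts were then made in cells with at least 1 UMI of STMN2, to see the members within a neuron-enriched set. This gate is loose. It took 26.8% and 33.4% of the cells on D11 but 68.4% to 74.8% later, and on D45 67.1% to 71.0% of AQP4-positive and COL1A1-positive cells also held an STMN2 UMI. The part of free RNA in these UMIs was not tested. With STMN2 itself left out, the other 5 neuron markers (DCX, ELAVL3, MAPT, SNAP25, SYT1) summed to 564 and 474 CPM in gated cells on D11 against 79.2 and 59.7 CPM in the others, and to 1029 and 954 against 481 and 369 CPM on D45.

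Of 37 members tested in STMN2-gated cells, 6 were higher and 6 lower on D28 than on D11 (8.57% and 7.46% of all genes). For D45 against D28 the counts were 3 and 2 (3.38% and 2.72%), and for D45 against D11 they were 9 and 6 (14.2% and 13%). With scaling by library size alone the 3 splits were 6 higher and 2 lower, 3 and 1, and 13 and 5. The share of all called genes that were higher then went from 53.5% to 73.0%, from 55.4% to 60.2% and from 52.2% to 72.3%, so the splits depend on the scaling. These contrasts use the same libraries as those of whole organoids. Here too the number of all genes called moved in the same direction as that of the members when single libraries were left out. Leaving out D45 replicate A gave 4 calls for D45 against D11, without D11 replicate B there were 5, without D11 replicate A or D45 replicate B there were 7, and without D28 replicate A or B there were 28. For D28 against D11 the 12 calls became 1 without D11 replicate A, 3 without D11 replicate B, 5 without either D45 library and 19 without D28 replicate A. The 5 calls for D45 against D28 became 0 without any of the D11 or D45 libraries, 8 without D28 replicate A and 19 without D28 replicate B.

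On D45 against D11 in these cells, CDH4 (2.20 ± 0.22, edgeR adjusted p = 0.00096), CDH3 (2.60 ± 0.31, 0.00172) and CDH13 (1.66 ± 0.22, 0.00229) rose. CDH12 fell in the same contrast (-2.09 ± 0.27, edgeR adjusted p = 0.00217). These calls held without each library in turn. CDH20 rose by 2.82 ± 0.52 (edgeR adjusted p = 0.00848) and CDH6 fell by 2.47 on the log2 scale (edgeR adjusted p = 0.00564), and both calls were lost without D45 replicate A, that of CDH20 also without D11 replicate B. The oligodendrocyte lineage markers were at 4.48 and 3.31 CPM in the gated cells on D11 and at 449.5 and 347 CPM on D45. On D28 against D11, CDH23 rose by 2.74 ± 0.60 (edgeR adjusted p = 0.0237) and PCDH7 fell by 1.35 on the log2 scale (edgeR adjusted p = 0.0243), and each call was lost whichever D11 or D45 library was left out. Without D28 replicate A the CDH23 value was 1.35. Some protocadherins of the alpha cluster were not called in these cells. From D11 to D45, PCDHAC2 changed by 0.75 ± 0.27 (edgeR adjusted p = 0.0769) and PCDHA13 by 0.13 ± 0.20 (edgeR adjusted p = 0.664). The difference between gated cells and whole organoids was not tested.

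Next, cells with at least 1 UMI of a marker were compared with the other cells of the same library, for CORIN (a floor plate protease), WNT8B (a WNT ligand of the diencephalon and dorsal midline), STMN2, AQP4 (the astrocyte water channel) and COL1A1 (a fibroblast collagen). Gate-positive cells held more UMIs than the rest in all libraries, as in D45 replicate A with 13780 against 2086 for CORIN. A gate is not a cell type, and doublets were neither called nor removed.

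**Figure D4:**
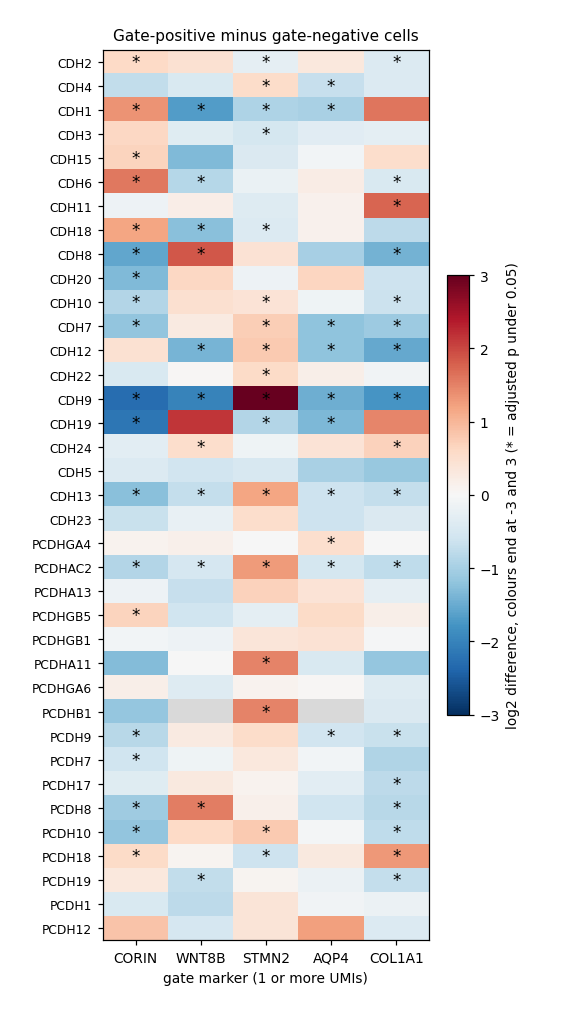
Log2 difference between gate-positive and gate-negative cells for each member and gate, over 6 libraries (4 for AQP4), with asterisks where the edgeR adjusted p was under 0.05. CDH9 is positive at 3.25 for STMN2 and negative for the other 4 gates, CDH8 is at 1.86 for WNT8B and CDH11 at 1.75 for COL1A1. Grey cells were not tested.

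CORIN-positive cells had more CDH6, CDH1, CDH18 and CDH2. Of 37 members, 7 were higher and 12 lower (15.5% and 15.7% of all genes). The positive cells numbered 5579 and 8246 on D11, 2864 and 3430 at D28 and 542 and 896 at D45, and their floor plate markers other than CORIN summed to 2825 and 2314.5 CPM on D11 and 711 and 509 CPM on D45, against 966 and 938 CPM and 182 and 267 CPM in the rest.

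CDH6 had 138 and 109 CPM in CORIN-positive cells on D11 and 112 and 105 CPM in negative ones. On D28 it had 192 and 556 CPM against 47.9 and 132 CPM, and on D45 it had 121 and 150 CPM against 27.0 and 38.5 CPM. Positive cells were higher in 6 of 6 libraries, by little on D11 and by several times later, with a mean difference of 1.59 ± 0.34 (edgeR adjusted p = 0.00951). The difference grew from D11 to D45 by 1.91 ± 0.12 (edgeR interaction test, adjusted p = 0.000386), where 13 of 37 members and 8.89% of all genes had a called interaction. The 13 became 4 without D11 replicate A, 7 without D11 replicate B and 6 without D45 replicate A.

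CDH1 was higher by 1.34 ± 0.25 in CORIN-positive cells (edgeR adjusted p = 0.00493), in 6 of 6 libraries. The values on D45 were 57.9 and 122 CPM against 17.2 and 24.9 CPM. On D45 these positive cells also held more summed fibroblast markers, 1002 and 2360.1 CPM against 452 and 1271 CPM, and the part of such cells in the CDH1 level was not tested. CDH2 had 649, 548, 773, 714, 614 and 513 CPM in positive cells and 568, 537, 391, 493, 399 and 397 CPM in negative cells, listed by day with replicate A before B. It was higher in 6 of 6 libraries (0.60 ± 0.13, edgeR adjusted p = 0.0108). CDH18 differed by 1.18 ± 0.20 (edgeR adjusted p = 0.00335), with 82.9 and 67.1 against 25 and 28.2 CPM on D11.

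The type II cadherins CDH9, CDH19 and CDH8 were lowest in CORIN-positive cells relative to the rest. CDH9, a cadherin of synaptic wiring, differed by -2.29 ± 0.33 (edgeR adjusted p = 0.00175), CDH19 by -2.17 ± 0.20 (0.000345) and CDH8 by -1.55 ± 0.20 (0.00116), each in 6 of 6 libraries. CDH8 went from 23.2 and 18.4 CPM in positive cells on D11, against 124 and 78.0 CPM in negative ones, to 45.6 and 45.9 against 82.1 and 109 CPM on D45. Summed neuron markers were also lower in positive cells, at 171 to 814 CPM against 1223 to 3484 CPM.

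WNT8B-positive cells carried a different set. Of 36 members, 3 were higher and 8 lower (3.26% and 6.02% of all genes). CDH8 had 238 and 172 CPM in positive cells on D11, 116 and 240 at D28 and 174 and 238 at D45, against 34.6 and 25.8, 43.7 and 85.0, and 75.9 and 87.8 CPM in the rest. It was higher in 6 of 6 libraries, by 1.86 ± 0.23 (edgeR adjusted p = 0.00453). The difference shrank from D11 to D45, by -1.29 ± 0.11 (edgeR interaction test, adjusted p = 1.03e-05), where 18 of 36 members and 32.4% of all genes had a called interaction. The positive cells numbered 2888 and 2253 in the D11 libraries but 362 and 932 in those of D45. Their other diencephalic-type markers (DBX1, EMX2, BARHL2) also fell, from sums of 243 and 253 CPM to 26.9 and 38.5 CPM. In the rest these sums were 14.5 and 11.0 CPM and then 5.73 and 11.9 CPM. The part of this shift in the change of CDH8, or of PCDH8 below, was not tested.

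PCDH8 followed the same course, with 74.0 and 72.0 CPM in WNT8B-positive cells on D11 against 12.8 and 11.2 CPM, and 20.3 and 19.6 against 13.9 and 12.5 CPM on D45. The mean difference was 1.53 ± 0.30 (edgeR adjusted p = 0.0192), lost without D28 replicate B. CDH24 differed by 0.53 ± 0.13 (edgeR adjusted p = 0.0455), a call lost whichever library was left out. CDH9 (-2.01 ± 0.32, edgeR adjusted p = 0.00889), CDH1 (-1.68 ± 0.22, 0.00471) and CDH12 (-1.39 ± 0.15, 0.00249) were lower in 6 of 6 libraries. CDH1 had 3.66 to 11.0 CPM in the positive cells and 8.88 to 37.5 CPM in the rest. CDH19 was not called over all days (2.15 ± 1.26, edgeR adjusted p = 0.335), and it had 69.6 and 33.8 CPM on D11 in positive cells, against 3.82 and 1.67 CPM, but 0 and 1.54 CPM on D45, against 5.52 and 9.12 CPM.

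STMN2-positive cells stood out by CDH9. Of 37 members, 11 were higher and 6 lower (14% and 20.8% of all genes), and the 17 calls became 10 without D28 replicate B and 11 without D28 replicate A. CDH9 had 10.4 and 11.3 CPM in positive cells on D11, 6.36 and 23.6 at D28 and 14.8 and 11.7 at D45, against 0.213 and 0.234, 0.738 and 2.35, and 6.18 and 2.77 CPM in negative cells. It was higher in 6 of 6 libraries, by 3.25 ± 0.59 (edgeR adjusted p = 0.00366). The positive cells lay between 6.36 and 23.6 CPM on all days while the negative cells were highest on D45, and the difference fell by -3.90 ± 0.29 from D11 to D45 (edgeR interaction test, adjusted p = 3.88e-05), where 20 of 37 members and 15.9% of all genes had a called interaction. The 20 became 12 without D11 replicate A or B and 13 without D45 replicate A. Neuron markers in the negative cells moved in the same way, from 79.2 and 59.7 CPM on D11 to 481 and 369 CPM on D45, and their part was not tested.

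The clustered protocadherins PCDHAC2 (1.28 ± 0.19, edgeR adjusted p = 0.00145) and PCDHA11 (1.48 ± 0.42, 0.026) were also higher in STMN2-positive cells. PCDHAC2 had 69.8 and 51.1 CPM in positive cells on D11 against 15.4 and 12.4 CPM, and 116 and 133 against 68.6 and 74.2 CPM on D45. PCDHA11 rested on 7 to 76 UMIs per library in the positive cells, and its call was lost without D28 replicate A or D45 replicate A. CDH1 (-0.92 ± 0.08, edgeR adjusted p = 0.000208), CDH19 (-0.89 ± 0.20, 0.00947) and PCDH18 (-0.63 ± 0.07, 0.000508) were lower in 6 of 6 libraries. PCDH18, a delta protocadherin, had 6.78 to 17.1 CPM in positive and 10.7 to 25.6 CPM in negative cells, and the call of CDH19 was lost without D28 replicate B.

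AQP4-positive cells were too few on D11 (6 and 2 cells), so that this gate used the 4 later libraries, with 127, 63, 1770 and 2303 cells. Of 36 members, 1 was higher and 9 lower (11.6% and 10.6% of all genes). PCDHGA4, whose name is uncertain among the gamma isoforms, was the higher one, with 131, 192, 194 and 187 CPM in positive cells and 112, 137, 144 and 144 CPM in negative cells (0.49 ± 0.09, edgeR adjusted p = 0.00653). CDH9 (-1.47 ± 0.25, edgeR adjusted p = 0.00546), CDH19 (-1.34 ± 0.35, 0.0277) and CDH7 (-1.21 ± 0.25, 0.012) were lower in 4 of 4 libraries. CDH19 had 0 UMIs in the positive cells of both D28 libraries, and its call was lost without D45 replicate A. CDH2 had 525 CPM on average in the positive and 469 CPM in the negative cells, a difference that was not called. By this mean of the 4 libraries it ranked first among the members in the gate, before PCDH9 at 446 CPM, and no rank by day was made. The same order was found in the CORIN, WNT8B and COL1A1 gates, while PCDH9 ranked before CDH2 in the STMN2 gate. Neuron markers were lower in the positive cells, at 449 to 905 CPM against 1822 to 2434 CPM, and their part was not tested.

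COL1A1-positive cells carried CDH11 and PCDH18. Of 37 members, 3 were higher and 14 lower (6.32% and 12.7% of all genes). Of all genes called in this gate, 33.2% were higher, against 47.3% with DESeq2 size factors in edgeR, where 16 members were called. Without D28 replicate A the 17 calls became 10. The gate held 207 and 161 cells from D11, 2296 and 404 from D28 and 1262 and 3421 from D45. The fibroblast markers other than COL1A1 summed to 51.9 and 244 CPM in the gate on D11 and to 1106 to 2468 CPM later, against 7.34 and 10.4 CPM and 34.9 to 223 CPM in the rest. On D11 epithelial markers (67.3 and 64.0 CPM) were also above the rest (20.1 and 22 CPM).

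CDH11 had 127 and 156 CPM in COL1A1-positive cells on D11, 312 and 460 at D28 and 280 and 259 at D45, against 81.4 and 61.8, 62.3 and 91.4, and 75.8 and 80.3 CPM in negative cells. The 2 sets of cells did not overlap, with a difference of 1.75 ± 0.27 (edgeR adjusted p = 0.00414). PCDH18 differed by 1.30 ± 0.22 (edgeR adjusted p = 0.00615), with 18.5 to 39.7 CPM against 5.35 to 18.5 CPM, and CDH24 by 0.69 ± 0.13 (edgeR adjusted p = 0.0106). CDH9 (-1.78 ± 0.34, edgeR adjusted p = 0.00982), CDH12 (-1.53 ± 0.37, 0.0242) and CDH8 (-1.41 ± 0.26, 0.00837) were lower in 6 of 6 libraries. The call of CDH12 was lost without D28 replicate A, D28 replicate B or D45 replicate A. CDH9 had 0 UMIs in the positive cells on D11.

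CDH1 had no call over all days in the COL1A1 gate (1.61 ± 0.62, edgeR adjusted p = 0.105), and its values differed by day. The positive cells had 12.9 and 12.7 CPM on D11, 14.3 and 19.4 CPM on D28, and 103 and 91.7 CPM on D45. The negative cells had 11.8 and 15.1 CPM, 6.92 and 9.98 CPM, and 8.21 and 8.74 CPM. On D45 positive cells were about as far above negative cells in both replicates, and on D11 the sets overlapped. The difference grew by 3.93 ± 0.20 from D11 to D45 (edgeR interaction test, adjusted p = 2.17e-06), while 12 of 37 members and 16.6% of all genes had a called interaction and the median of all genes was 0.28 in this test.

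**Figure D5:**
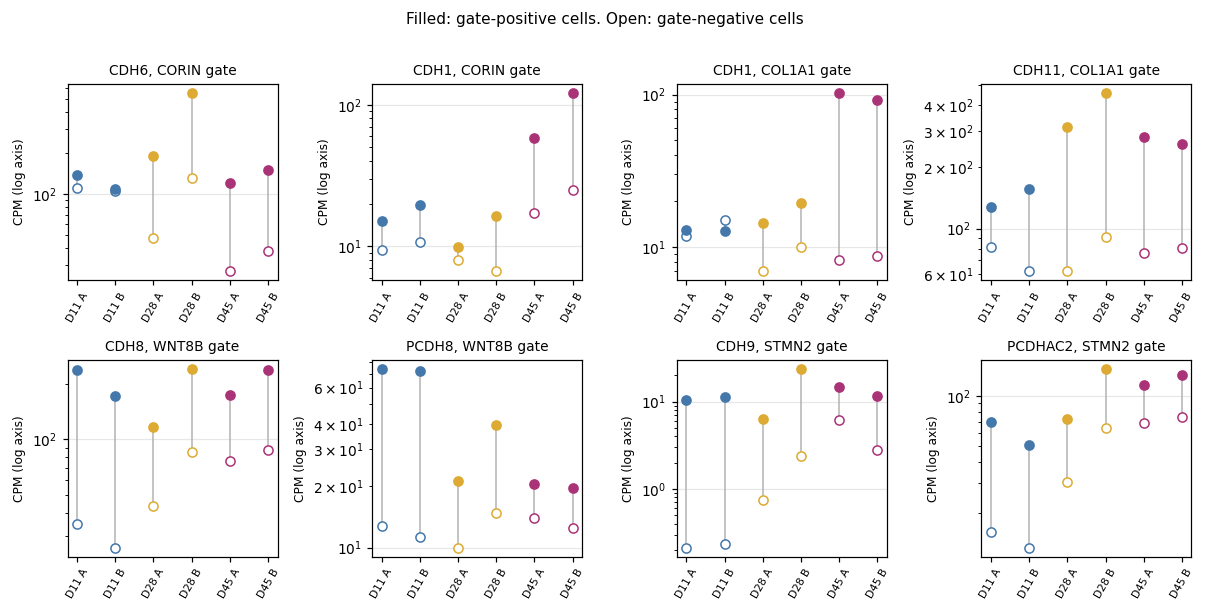
CPM (log axis) of 7 members in 8 panels, in gate-positive (filled) and gate-negative (open) cells of each library, joined by a line. CDH1 in the COL1A1 gate separates on D45 (103 and 91.7 against 8.21 and 8.74 CPM), CDH9 in the STMN2 gate separates most on D11 (10.4 and 11.3 against 0.213 and 0.234 CPM), and CDH8 stays above the rest in every WNT8B-positive set.

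Partners of the cadherins were followed from lists of known genes. Of 7 catenins tested, 2 were higher and 2 lower on D45 than on D11, where 17.3% of all genes were higher and 17.4% lower. CTNNA2, the alpha-catenin of neurons, went from 135 and 123 CPM on D11 to 776 and 742 CPM on D45 (2.15 ± 0.24, edgeR adjusted p = 0.00108). CTNNB1, which ties cadherins to alpha-catenin, was between 144 and 187 CPM in every library (edgeR adjusted p = 0.0720 for D45 against D11), and CTNND2, a delta-catenin of synapses, was between 402 and 954 CPM.

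Of 14 other cadherin superfamily genes, 4 were higher and 5 lower (17.3% and 17.4% of all genes). The desmosomal cadherins DSG2 and DSC2, chosen after their values were seen, fell furthest among those named here. DSG2 had 61.2 and 58.4 CPM on D11 and 11.2 and 10.8 CPM on D45 (-2.86 ± 0.23, edgeR adjusted p = 0.000369), and DSC2 went from 29.6 in both D11 libraries to 5.47 and 6.00 CPM (-2.77 ± 0.19, edgeR adjusted p = 0.000281). CLSTN1, a calsyntenin of axonal transport, rose from 85.1 and 77.3 to 222 and 204 CPM (0.98 ± 0.18, edgeR adjusted p = 0.00756), while CLSTN2 fell (-1.27 ± 0.33, edgeR adjusted p = 0.0247). FAT1, a giant cadherin of progenitor apical surfaces, fell from 82.3 and 70.3 to 38.5 and 49.8 CPM (-1.19 ± 0.30, edgeR adjusted p = 0.0209). Of 5 proteases that cut cadherins, 1 was higher and 2 lower, beside the same 17.3% and 17.4%. ADAM10, the sheddase of CDH2, fell from 155 and 138 to 117 and 111 CPM (-0.77 ± 0.18, edgeR adjusted p = 0.0151). Of 5 actin partners of protocadherins, 0 passed in either direction on D45 against D11 in edgeR or DESeq2, with 0 at an unadjusted p under 0.05 in edgeR. On D28 against D11, 1 of the 5 was lower (10.6% of all genes). It was CYFIP1, a member of the WAVE actin-regulating complex, named after its values were seen, which went from 43.9 and 40.6 to 23.2 and 35.0 CPM (-0.82 ± 0.18, edgeR adjusted p = 0.0213).

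Of 4 repressors of cadherin genes tested, SNAI1, SNAI2, ZEB1 and ZEB2, 0 passed on D45 against D11 (0 of them at an unadjusted p under 0.05 in edgeR or DESeq2). ZEB2 fell and then rose, with 238 and 200 CPM on D11, 98.5 and 168 CPM on D28, and 363 and 409 CPM on D45. Its change was -1.002 ± 0.24 for D28 against D11 (edgeR adjusted p = 0.0259, 10.6% of all genes lower) and 1.42 ± 0.24 for D45 against D28 (edgeR adjusted p = 0.0212, 4.51% of all genes higher). The second call did not hold without D45 replicate A. In COL1A1-positive cells 3 of the 4 were higher (6.32% of all genes). The differences there were 3.42 ± 0.44 for SNAI1 (edgeR adjusted p = 0.00207), 3.01 ± 0.47 for SNAI2 (0.00484) and 1.09 ± 0.22 for ZEB2 (0.0123). SNAI1 was named after its values were seen. ZEB1, at 210 to 574 CPM in whole organoids, had an adjusted p of 0.0593 in edgeR.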

How the data were processed

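The 6 libraries of porcine midbrain-like organoids (2 per day on D11, D28 and D45) were read from filtered 10x count matrices. The deposited values are raw UMI counts per gene and cell, which the authors made with Cell Ranger 8.0.1 (per the file headers) on Sscrofa11.1 from 10x 3′ libraries. Seurat 4.3.0 is also listed in the submitters' processing notes.

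Cells with 200 to 7000 detected genes and at most 10% of UMIs from 13 mitochondrial protein-coding genes were kept (103519 of 104820 barcodes). No doublet caller was run. Counts were summed per library, or per library and gate (at least 1 UMI of the marker), and tested with the edgeR 4.0.16 quasi-likelihood test (R 4.3.3) with TMM scaling, Benjamini-Hochberg adjustment over all genes tested and a threshold of 0.05. All 6 libraries entered the fits of days, and library was a term in the fits of gates, which needed 20 cells per side. The SE printed with a fitted edgeR change was derived from the test. It is the size of the log2 change divided by the square root of the F statistic. The p-values of days measure the spread between the 2 libraries of a day, pooled over the days. Those of gates measure how far the difference between positive and negative cells varied over the libraries used, whatever their day. Those of the interaction tests measure how far that difference varied between the 2 libraries of a day. Alternatives included DESeq2 1.42.0, other scalings, no filter on low counts, cells thinned to 2000 UMIs, stricter gates and leaving out each library. The test scripts were tested on simulated data.

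The members and lists were chosen with earlier results of these data known. Named are the 10 members of highest mean CPM, the 3 largest rises and falls per contrast of days and the 3 largest differences of either sign per gate among called members, CDH1, CDH2 and CDH5, and up to 3 genes per partner list. Further called members were named after their values were seen.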

Additional observations from a re-analysis of the deposited data

Results flagged for a closer look

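The difference between gate-positive and gate-negative cells changed between D11 and D45, by the edgeR interaction test with Benjamini-Hochberg adjustment, for 13 of 37 members in the CORIN gate (8.89% of all genes), 18 of 36 in the WNT8B gate (32.4%), 20 of 37 in the STMN2 gate (15.9%) and 12 of 37 in the COL1A1 gate (16.6%). Values are given for the 18 pairs of a member and a gate that the rule for named genes covers. Others called lie outside that rule, such as CDH19 in the WNT8B gate, which had 0 and 20 UMIs in the positive cells of the D45 libraries, so that no size is given for it. All values are changes of a log2 difference. In the COL1A1 gate the change was 3.93 for CDH1, 2.01 for CDH12, 1.58 for CDH8, 1.24 for PCDH18 and 1.15 for CDH11, beside a median of 0.28 over all genes. CDH9 gave 9.79 there, with 0 UMIs in the positive cells of both D11 libraries, so that this fitted value is no bound. The CDH12 value was 1.04 without D11 replicate A and 3.80 without D11 replicate B, the PCDH18 call was lost without D11 replicate A or D45 replicate A, and the CDH9 call without D11 replicate A or B. In the CORIN gate the change was 1.91 for CDH6, 1.30 for CDH1, 1.23 for CDH8 and -1.05 for CDH18. The CDH1 call was lost without any D11 or D45 library, that of CDH8 without D11 replicate A or D45 replicate A, and that of CDH18 without D11 replicate A, D28 replicate A or D45 replicate A, where its value was -0.69 without the last.

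In the STMN2 gate the difference changed by -3.90 for CDH9, -2.87 for PCDHA11, -1.25 for PCDHAC2 and -0.91 for CDH19. With a gate of 5 STMN2 UMIs per 10000, the CDH19 value was 0.27 ± 0.55 (SE) and was not called. The PCDHA11 call was lost without any D11 or D45 library and that of CDH19 without D11 replicate A, D11 replicate B or D45 replicate A, with a CDH19 value of -1.46 without D45 replicate B. In the WNT8B gate it changed by -1.86 for PCDH8, -1.29 for CDH8, 1.53 for CDH9 and 0.86 for CDH2. With gated cells that held 1 marker alone, the CDH9 value was -0.0707 ± 1.98 (SE) and was not called. The other calls named here held without each library in turn. Depth, the share of gated cells and other markers also moved between these days, and their part was not tested.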

How the results depend on the processing

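Of the counts of called members, 112 stayed within 1.5 times under an alternative, 38 were lower and 10 higher. With 2 libraries per day, single libraries decided many calls of days: the counts ranged from 2 to 24 (D28 against D11), 0 to 23 (D45 against D28) and 10 to 31 (D45 against D11) in whole organoids, and from 1 to 19, 0 to 19 and 4 to 28 in STMN2-gated cells. Gate counts ranged from 15 to 18 for CORIN, 8 to 10 for WNT8B, 10 to 15 for STMN2, 10 to 12 for AQP4 and 10 to 16 for COL1A1. For D45 against D28 in whole organoids, thinned cells gave 5 calls and the replicate block 4 in place of 8. In STMN2-gated cells the replicate block gave 6 in place of 12 for D28 against D11. For D45 against D28 there, in place of 5, DESeq2 gave 8, the replicate block 0, thinned cells 1, a gate of 2 or more UMIs 3, cells with 1 marker alone 1, and 5 UMIs per 10000, added after the data were seen, 1. Under these alternatives the number of all genes called moved in the same direction. The labels do not say whether the replicate letters pair samples across days, and the samples were treated as unpaired. Differences of A and B correlated across genes at -0.60, 0.25 and -0.38 between days in whole organoids, which cannot settle the pairing. Without library as a term, the gates gave 1 (CORIN), 1 (WNT8B), 0 (STMN2), 0 (AQP4) and 2 (COL1A1) calls. Calls were few among all genes too, at 775 of 19542 (CORIN), 18 of 19566 (WNT8B) and 279 of 19769 (STMN2). For AQP4 they were 141 of 19485 and for COL1A1 327 of 19205. The change of the CDH12 difference in the WNT8B gate reversed to -1.18 with 2 or more UMIs and to -2.41 with 1 marker alone, that of CDH9 to -0.0707 with 1 marker alone, and that of CDH19 in the STMN2 gate to 0.27 with 5 UMIs per 10000. The cause was not tested. The last 2 alternatives were not run for AQP4, nor 5 UMIs per 10000 for the COL1A1 interaction, because too few libraries had 20 cells per side.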
